A study of Homo sapiens with 8 samples.

Results

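The RNA of the semaphorins, plexins, neuropilins, ephrins and Eph receptors was followed in glioblastoma cells labeled as carrying Survivin in different compartments, with and without temozolomide (TMZ). The members were all genes of the count file with a symbol of these families, and they were 53 of 26364 genes. Of the 53 members, 20 are semaphorins, 9 plexins, 2 neuropilins, 8 ephrins and 14 Eph receptors. Counts were sufficient for a test in 44 members. The other 9 were EFNA2, EPHA1, EPHA6, EPHA8, EPHA10, EPHB6, PLXNA4, SEMA4D and SEMA5B, and 2 of them, EPHA1 and SEMA5B, had no read in any of the 8 libraries.

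LN229 is an established human glioblastoma line. Clone Surv-GFP (D6) stably expresses Survivin, the product of BIRC5, fused to eGFP from a pcDNA3.1 plasmid, and the labels place the protein mainly in the cytoplasm. Clone SurvNESmut-GFP (L2) expresses the same fusion with the substitutions L96A and L98A in the nuclear export signal (NES), and the labels place it mainly in the nucleus. The location of either protein was not measured in these libraries, also not after exposure. By imaging, the paper reports that Surv-GFP of this same clone gathers in the nucleus upon TMZ. The label of the exposed Surv-GFP cells is therefore not read as the place of the protein, nor the exposed clones as cytoplasmic against nuclear Survivin. Both clones were kept under G418 selection and were left untreated or exposed for 48 h to 50 µM TMZ, a methylating anticancer drug given here from a stock in DMSO. Each of the 4 groups has 2 libraries, lettered a and b. The study describes its RNA data as biological replicates, 2 per clone and each in duplicate, but no source ties the letters to one or the other level, so p-values measure only the spread between these libraries, which may be in part technical. Each form of Survivin is represented by a single clone, and the effect of the NES mutation and other differences between the clones cannot be told apart.

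Semaphorins are guidance cues. The class 3 semaphorins are secreted and bind neuropilins, which pair with class A plexins as the signaling partner, while most other semaphorins stay on the membrane and bind plexins directly. Plexins act through a GTPase-activating domain and remodel the cytoskeleton and integrin adhesion. Ephrins are membrane-bound ligands of the Eph receptor tyrosine kinases: ephrin-A ligands hang on a lipid anchor and ephrin-B ligands span the membrane, so that signals run into both of the touching cells. In glioblastoma these families are known for their part in migration, invasion and the vasculature.

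The libraries held 15826923 to 18861603 reads on genes, of which 0.265% to 0.325% fell on the members. Levels are given in CPM, read counts per TMM-scaled library size. The spread between a and b exceeded counting noise in every group, with a chi-square per degree of freedom between 2.18 and 2.62 in 3 groups and of 5.62 in SurvNESmut-GFP cells with TMZ, whose libraries differed most. Over the 38 members above the count filter in all 4 groups, the median coefficient of variation between a and b was 2.87% to 4.91% in 3 groups and 7.74% in that one. BIRC5, which counts the endogenous gene and possibly the transgene, was at 1152 and 1113 CPM in untreated Surv-GFP cells, 1938 and 2029 with TMZ, 407 and 414 in untreated SurvNESmut-GFP cells and 262 and 253 with TMZ. CDKN1A, a p53 target that checks the exposure, rose by 3.52 ± 0.07 (SE) and 1.96 ± 0.07 on the log2 scale in the respective clones. Of 12 glioma markers 9 were above 5 CPM in all libraries, among them VIM, NES and CD44, whereas GFAP, SOX9 and CHI3L1 stayed below 1 CPM. Of 13 markers of other cell types 9 stayed below 1 CPM and 2, KRT18 and PDGFRB, were above 5 CPM in all libraries. SYP was at 1.38 to 3.33 CPM and MBP at 0 to 7.10 CPM over the libraries. The summed level of the 13 moved with the exposure. In Surv-GFP cells it was 145 to 146 CPM without and 275 to 280 CPM with TMZ. In SurvNESmut-GFP cells it was 153 to 162 CPM without and 209 to 232 CPM with TMZ. Most of this sum was KRT18, a keratin, and its part in the results was not tested. In these bulk libraries fewer cells of a type and less RNA per cell cannot be told apart.

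The promoters of 4 members that carry much of the comparison are shown, EFNB2 and EPHA2, which rose upon TMZ, and SEMA5A and EPHB3, which fell in Surv-GFP cells. Each is the stretch of 250 bases before the annotated start, taken from RefSeq on build GRCh38.p14 and written 5′ to 3′ on the strand of the gene. Capitals mark the matches to the motifs searched on both strands, namely the GC box GGGCGG, the CRE TGACGTCA, the AP-1 site TGANTCA, the TATA box TATAAA and, by its name alone, the p53 response element.
EFNB2 (chr13:106535663-106535912, minus strand): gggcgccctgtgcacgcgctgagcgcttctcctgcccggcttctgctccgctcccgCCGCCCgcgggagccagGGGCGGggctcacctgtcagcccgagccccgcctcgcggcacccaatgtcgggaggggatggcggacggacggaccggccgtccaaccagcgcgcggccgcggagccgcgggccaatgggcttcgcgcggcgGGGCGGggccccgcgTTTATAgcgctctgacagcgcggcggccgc
EPHA2 (chr1:16156070-16156319, minus strand): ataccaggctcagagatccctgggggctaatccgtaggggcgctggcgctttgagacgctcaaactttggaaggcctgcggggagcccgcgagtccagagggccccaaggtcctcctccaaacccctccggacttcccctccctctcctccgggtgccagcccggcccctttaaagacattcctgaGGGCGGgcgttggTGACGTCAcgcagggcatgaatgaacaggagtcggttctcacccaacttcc
SEMA5A (chr5:9546076-9546325, minus strand): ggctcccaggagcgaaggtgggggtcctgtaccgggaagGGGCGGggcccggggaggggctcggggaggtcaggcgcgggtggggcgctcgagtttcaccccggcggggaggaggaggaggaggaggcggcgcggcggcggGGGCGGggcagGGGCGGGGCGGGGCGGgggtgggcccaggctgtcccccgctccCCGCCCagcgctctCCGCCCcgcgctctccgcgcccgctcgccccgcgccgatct
EPHB3 (chr3:184561535-184561784, plus strand): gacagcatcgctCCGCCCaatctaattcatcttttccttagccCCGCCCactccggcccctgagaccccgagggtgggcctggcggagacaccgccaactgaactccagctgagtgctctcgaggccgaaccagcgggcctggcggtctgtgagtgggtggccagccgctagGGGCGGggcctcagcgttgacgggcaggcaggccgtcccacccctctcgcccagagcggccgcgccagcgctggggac
The SEMA5A stretch holds 7 GC boxes, partly overlapping, the EFNB2 stretch 3 with a TATA box, the EPHB3 stretch 3, and the EPHA2 stretch 1 next to a CRE. Their GC content was between 63.2% and 82.0%, and they hold 15 to 40 CpG dinucleotides, against a median of 11 over all promoters. Promoters were found for 47 of the 53 members, as 74 entries. A GC box was in 54 of the 74 entries and in 42.6% of all 35116 promoters of the same length. A CRE was in 3 entries (1.65% of all promoters), an AP-1 site in 1 (6.57%), a TATA box in 3 (10.7%) and the p53 response element in 0 (0.0256%). A match is a description of letters, and its absence says only that these letters are not in the window.

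Per length, the families were led by few members. Levels per kilobase of exonic length, in CPM per kb, allow genes to be set against each other. SEMA3B, a secreted semaphorin, was highest in untreated Surv-GFP cells with 76.9 ± 0.161 CPM per kb (SD, n = 2), before PLXNB2, a receptor of class 4 semaphorins, with 47.4 ± 0.0949 and PLXNB3 with 44.7 ± 1.2. With TMZ the order in Surv-GFP cells began with EPHA2 at 92.7 ± 3.43 CPM per kb, followed by PLXNB2 at 87.4 ± 4.58 and SEMA3B at 75.5 ± 2.37. The mean ± SD intervals of EPHA2 and PLXNB2 overlap, and those of PLXNB2 and SEMA3B do not. In untreated SurvNESmut-GFP cells SEMA3B led again with 83.6 ± 0.994 CPM per kb, before PLXNB2 with 61.8 ± 0.574 and EPHA2 with 53.2 ± 0.350. After exposure PLXNB2 led with 91.9 ± 3.90, and the mean ± SD intervals of EPHA2 (81.3 ± 0.194) and SEMA3B (74.5 ± 7.92) overlapped. Of the 44 tested members 6 were not above the filter in all 4 groups and are read with this in mind: EPHA7, SEMA3F and PLXNA2 passed through 1 clone, SEMA4A through Surv-GFP cells with TMZ, SEMA6D in 3 groups, and EPHB1 through scattered libraries.

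**Figure D1:**
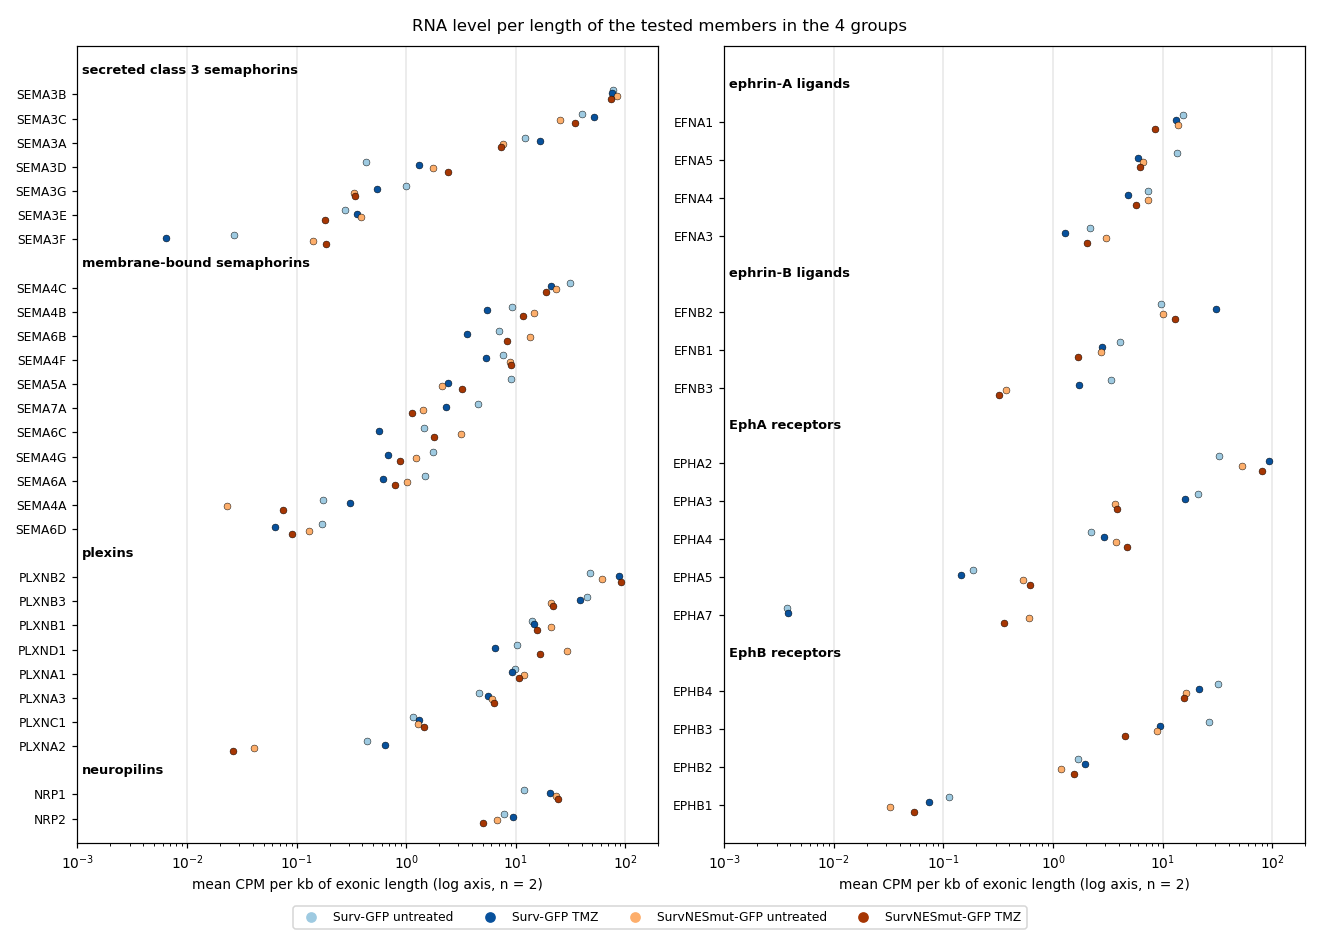
Mean RNA level per kilobase of exonic length (CPM per kb, log axis, n = 2) of the 44 tested members in the 4 groups, ordered by level within each role. SEMA3B, PLXNB2 and EPHA2 reach 74.5 CPM per kb or more in cells with TMZ, while EPHA7 is near the left edge in Surv-GFP cells only.

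To see how the guidance families respond to the drug, the TMZ effect was compared in each clone. Upon TMZ 32 of the 44 members tested changed in Surv-GFP cells, 72.7%, against 58.9% of all 14201 tested genes. Of these 11 rose and 21 fell, 25.0% and 47.7%, where 30.1% and 28.9% of all genes rose and fell. In SurvNESmut-GFP cells 24 changed, 54.5%, against 37.8% of all genes, and 8 rose and 16 fell, 18.2% and 36.4%, where 18.6% and 19.1% of all genes did. By 1 or more on the log2 scale, 3 rose (5.18% of all genes) and 7 fell (5.29%) in Surv-GFP cells, and 0 rose (2.37%) and 1 fell (1.76%) in SurvNESmut-GFP cells. The members' median log2 fold change was −0.37 and −0.11 in the respective clones, and that of all genes was 0.00 in each. Their median absolute log2 fold change was 0.63 and 0.40, against 0.32 and 0.20 over all genes. The TMZ effects differed between the clones in 22 members (50.0%; 36.8% of all genes). In 12 of them SurvNESmut-GFP cells had the higher log2 fold change (16.6% of all genes) and in 10 the lower one (20.2%). Differences of 1 or more on the log2 scale were positive in 2, SEMA5A and EFNA5 (2.5% of all genes), and negative in 3, EFNB2, SEMA3D and SEMA3E (2.99%).

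Across both clones 6 members rose in each (11.7% of all genes) and 10 fell in each (11.9%), while 2 went opposite ways (3.91%), SEMA5A and NRP2. A further 4 rose (16.1% of all genes) and 10 fell (15.3%) in Surv-GFP cells without passing the test in SurvNESmut-GFP cells, and 1 rose (5.26%) and 5 fell (4.98%) in SurvNESmut-GFP cells without passing it in Surv-GFP cells. Called in neither clone were 6, or 13.6%, against 30.8% of all genes. The absolute effect was larger in Surv-GFP cells for 30 of the 44, 68.2%, close to the 65.6% of all genes. Over the 44 members, which share libraries and in part sequence, Pearson's r between the effects was 0.383 and Spearman's rho 0.375, given as a description.

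**Figure D2:**
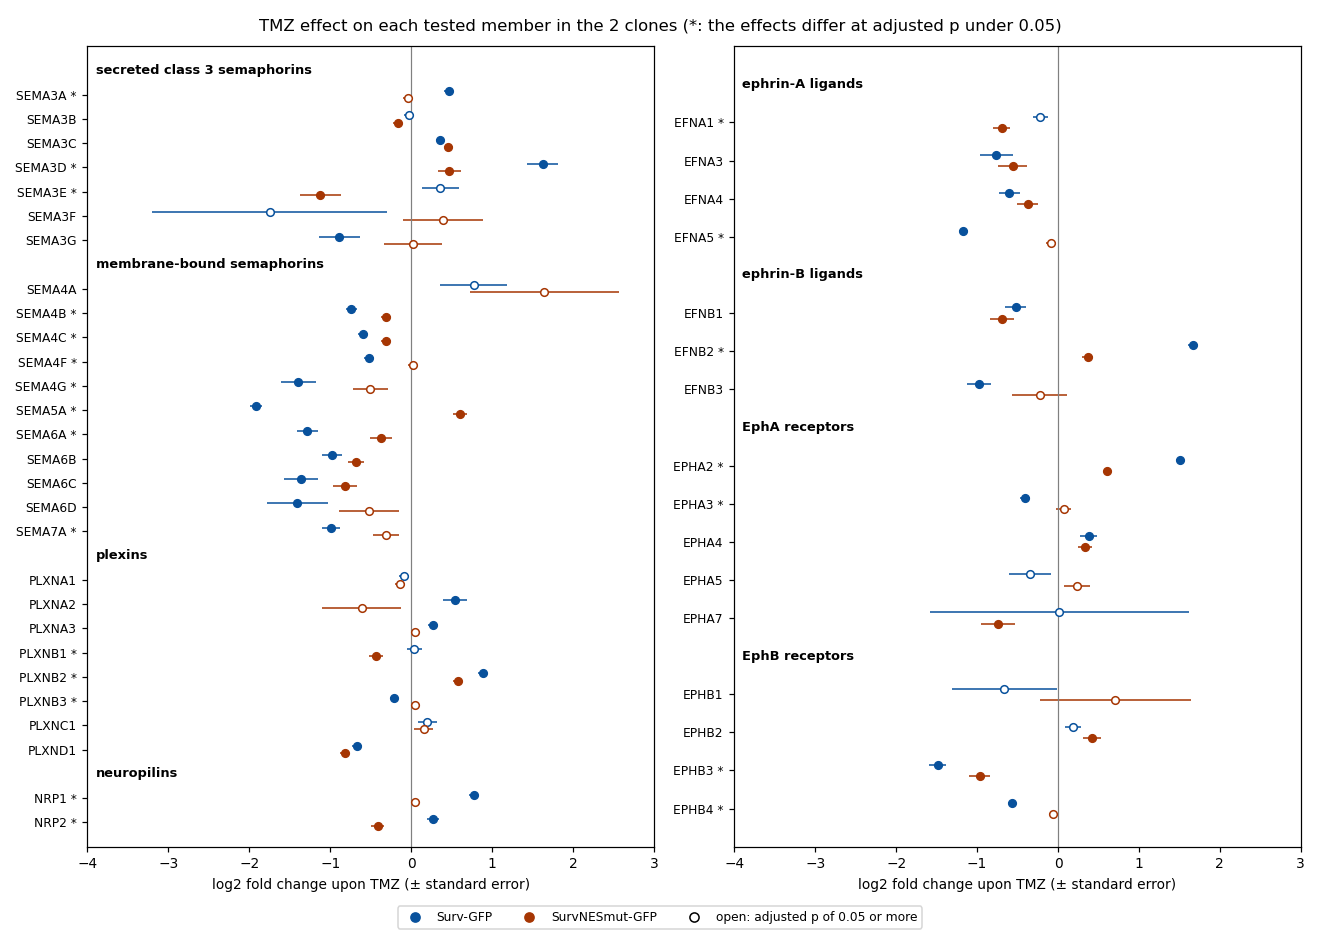
Log2 fold change upon TMZ (x axis, ± SE) of the 44 tested members in Surv-GFP (blue) and SurvNESmut-GFP cells (brown), by role, with open points where the adjusted p was 0.05 or more and a star where the effects differed between the clones. The membrane-bound semaphorins lie left of 0 in Surv-GFP cells except SEMA4A, and SEMA5A lies on opposite sides in the clones. The wide bars of SEMA3F and EPHA7 rest on groups with few reads.

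The membrane-bound semaphorins fell together in Surv-GFP cells. Of the 13 in this group 11 were tested, and 10 of these fell, by 0.52 to 1.91 on the log2 scale, while 0 rose. In SurvNESmut-GFP cells 5 fell, by 0.31 to 0.81, and 1 rose. Their median log2 fold change was −0.99 in the former and −0.31 in the latter. The summed level of the group went from 373 ± 16.2 to 191 ± 8.74 CPM (SD, n = 2) in Surv-GFP cells. It stood at 306 ± 3.30 and 263 ± 10.1 CPM in SurvNESmut-GFP cells. In untreated Surv-GFP cells SEMA4C and SEMA5A made up 29.8% and 28.4% of this sum. Their means in that clone went from 111 to 73.9 and from 106 to 28.2 CPM upon TMZ. The TMZ effect was higher in SurvNESmut-GFP cells for 7 of the 11 (63.6%, against 16.6% of all genes) and lower for 0 (20.2% of all genes).

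SEMA5A, a transmembrane semaphorin with thrombospondin repeats, changed most. It was at 108 and 104 CPM in untreated Surv-GFP cells, at 26.1 and 30.2 CPM with TMZ, at 25.2 and 25.0 CPM in untreated SurvNESmut-GFP cells and at 41.0 and 35.4 CPM with TMZ. The untreated Surv-GFP libraries were thus the high ones, and the groups did not overlap within either clone. Upon TMZ it fell by 1.91 on the log2 scale (SE 0.08, adjusted p = 2.66e-12) in Surv-GFP and rose by 0.61 (SE 0.09, adjusted p = 3.19e-05) in SurvNESmut-GFP cells. The difference of these effects was 2.52 ± 0.11 (SE, adjusted p = 1.54e-10), the largest among the members called.

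SEMA6A, SEMA6B and SEMA6C belong to the class 6 semaphorins, which bind class A plexins. SEMA6A was at 14.1 and 13.2 CPM in untreated and 5.24 and 6.03 CPM in TMZ-exposed Surv-GFP cells, and at 9.60 and 9.11 CPM in untreated and 6.49 and 8.01 CPM in exposed SurvNESmut-GFP cells. It fell by 1.28 (SE 0.13) and 0.37 (SE 0.14) on the log2 scale, and the effects differed by 0.91 ± 0.19 (adjusted p = 0.00141). The fall in SurvNESmut-GFP cells (adjusted p = 0.0397) lost its call with 5 of the 8 libraries left out in turn and reached an adjusted p of 0.316 without TMZ replicate a. SEMA6B was at 28.1 and 28.6 CPM in untreated and 13.9 and 15 CPM in exposed Surv-GFP cells, and at 51.9 and 55.0 and then 28 and 38.8 CPM in SurvNESmut-GFP cells. SEMA6C was at 7.05 and 4.64 and then 2.41 and 2.12 CPM in Surv-GFP cells, and at 12.3 and 13.0 and then 7.07 and 7.31 CPM in SurvNESmut-GFP cells. Both fell in each clone, SEMA6B by 0.97 and 0.68 and SEMA6C by 1.36 and 0.81 on the log2 scale, and the difference of effects did not pass the test (0.29 ± 0.16, adjusted p = 0.176, and 0.55 ± 0.27, adjusted p = 0.12). SEMA6D, at 1.08 and 1.44 CPM in untreated and 0.428 and 0.517 CPM in exposed Surv-GFP cells, fell there by 1.40 (SE 0.37), and stood at 0.813 and 1.11 and then 0.643 and 0.693 CPM in SurvNESmut-GFP cells (adjusted p = 0.300).

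Among the class 4 semaphorins, ligands of class B plexins and PLXND1, SEMA4C was the most abundant. It was at 118 and 105 CPM in untreated and 72.2 and 75.7 CPM in exposed Surv-GFP cells, and at 84.1 and 80.1 and then 65.0 and 67.8 CPM in SurvNESmut-GFP cells. SEMA4B was at 36.4 and 35.8 and then 21.3 and 22.0 CPM in Surv-GFP cells, and at 59.3 and 55.3 and then 46.0 and 46.5 CPM in SurvNESmut-GFP cells. Both fell in each clone, SEMA4C by 0.59 and 0.31 and SEMA4B by 0.74 and 0.31 on the log2 scale, with differences of 0.28 ± 0.09 (adjusted p = 0.0168) and 0.43 ± 0.09 (adjusted p = 0.00201). The difference in SEMA4C lost its call with any of 3 libraries left out, up to an adjusted p of 0.12 without untreated Surv-GFP replicate a. SEMA4F fell in Surv-GFP cells by 0.52, against 0.02 ± 0.06 in SurvNESmut-GFP cells, and these effects differed (adjusted p = 0.000123). SEMA4G was at 9.05 and 6.51 and then 2.67 and 3.27 CPM in Surv-GFP cells, and at 5.15 and 5.61 and then 2.98 and 4.66 CPM in SurvNESmut-GFP cells. It fell by 1.39 (SE 0.21) in the former and its log2 fold change in the latter was −0.50 ± 0.22 (adjusted p = 0.0862). Its difference of effects, 0.89 ± 0.31 (adjusted p = 0.0349), was lost with 5 libraries left out in turn, up to 0.199 without SurvNESmut-GFP TMZ replicate b. Exons of SEMA4G overlap those of MRPL43 on the opposite strand over 16.8% of its length in GENCODE v29, and the strandedness of the counting was not found in the sources used here. SEMA4A did not follow the group, with 0.867 and 0.386 and then 0.856 and 1.32 CPM in Surv-GFP cells and 0.108 and 0.0556 and then 0.351 and 0.189 CPM in SurvNESmut-GFP cells, and it passed the test in neither.

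SEMA7A, the lipid-anchored semaphorin that binds integrins and PLXNC1, was at 15.8 and 16 and then 7.75 and 8.27 CPM in Surv-GFP cells, and at 4.77 and 5.17 and then 4.33 and 3.66 CPM in SurvNESmut-GFP cells. It fell by 0.99 (SE 0.11) in the former, with a log2 fold change of −0.31 ± 0.16 (adjusted p = 0.140) in the latter. The effects differed by 0.68 ± 0.20 (adjusted p = 0.0130), a call that was lost without SurvNESmut-GFP TMZ replicate a (0.0865) and without the untreated replicate a of that clone (0.0537).

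**Figure D3:**
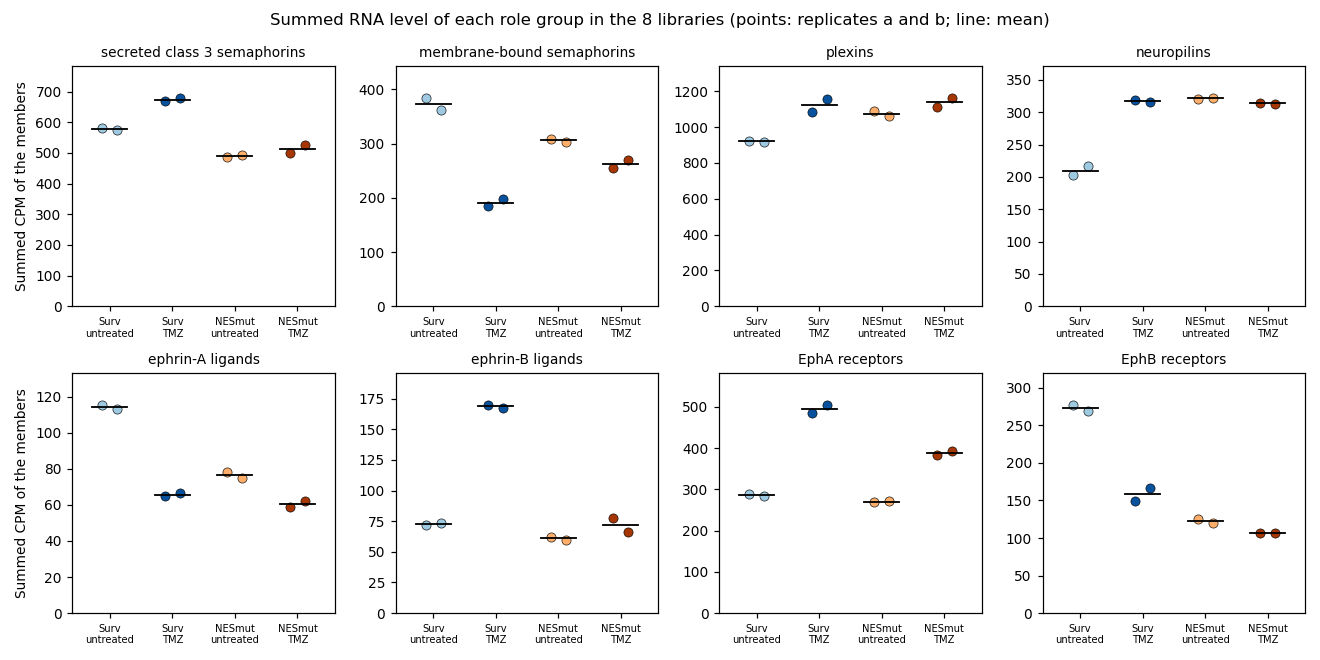
Summed CPM of the members of each role (y axis from 0) in the 8 libraries, with replicates a and b as points and the mean as a line. The membrane-bound semaphorins go from 373 to 191 CPM upon TMZ in Surv-GFP cells, and the ephrin-B ligands from 72.7 to 169 CPM.

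The secreted class 3 semaphorins did not move as one. In Surv-GFP cells, where 30.1% of all genes rose and 28.9% fell, 3 (42.9%) of the 7, all tested, rose and 1 (14.3%) fell. In SurvNESmut-GFP cells, where 18.6% and 19.1% of all genes did, 2 (28.6%) of them rose and 2 fell. SEMA3B, the highest of them per length, was at 255 and 254 CPM in untreated and 245 and 256 CPM in exposed Surv-GFP cells, and at 279 and 275 and then 228 and 266 CPM in SurvNESmut-GFP cells. Its ranges overlapped in Surv-GFP cells, and the fall by 0.17 in SurvNESmut-GFP cells (adjusted p = 0.0388) lost its call with 6 of the 8 libraries left out in turn, up to 0.434 without TMZ replicate a. SEMA3A, the ligand of NRP1 that collapses growth cones, was at 102 and 98.6 and then 143 and 134 CPM in Surv-GFP cells, and at 61.5 and 64.9 and then 61.4 and 61.3 CPM in SurvNESmut-GFP cells. It rose by 0.46 (SE 0.05) in the former and was at −0.04 ± 0.06 in the latter, and the effects differed (adjusted p = 8.51e-05). SEMA3C rose in both clones, by 0.36 and 0.46, with a difference of 0.10 ± 0.07 (adjusted p = 0.288).

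SEMA3D and SEMA3E were low, and their effects differed between the clones. SEMA3D was at 3.14 and 2.81 and then 10.3 and 8.09 CPM in Surv-GFP cells, and at 12.4 and 12.1 and then 19.5 and 14.4 CPM in SurvNESmut-GFP cells. It rose by 1.62 (SE 0.20) and 0.47 (SE 0.14) on the log2 scale, and the smaller rise (adjusted p = 0.0123) was lost without SurvNESmut-GFP TMZ replicate a (0.221) or either untreated library of that clone. SEMA3E, the ligand of PLXND1 that acts without a neuropilin, was at 2.06 and 2.43 and then 2.78 and 2.98 CPM in Surv-GFP cells, and at 3.31 and 3.06 and then 1.11 and 1.83 CPM in SurvNESmut-GFP cells. It fell by 1.12 (SE 0.25) in SurvNESmut-GFP cells and was at 0.36 ± 0.23 (adjusted p = 0.192) in Surv-GFP cells, with a difference of −1.48 ± 0.34 (adjusted p = 0.00280). SEMA3G was at 6.02 and 3.81 and then 2.99 and 2.30 CPM in Surv-GFP cells, and at 1.79 and 1.5 and then 1.17 and 2.21 CPM in SurvNESmut-GFP cells. Its fall by 0.89 in Surv-GFP cells (adjusted p = 0.00675) was lost without the untreated replicate a (0.165) or TMZ replicate b (0.0550). SEMA3F was at 0 and 0.221 and then 0.0535 and 0 CPM in Surv-GFP cells, and at 0.542 and 0.611 and then 0.585 and 0.946 CPM in SurvNESmut-GFP cells, and it passed the test of the TMZ effect in neither clone.

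NRP1 and NRP2, the neuropilins, are coreceptors of class 3 semaphorins and of VEGF. NRP1 was at 123 and 135 and then 222 and 220 CPM in Surv-GFP cells, and at 248 and 257 and then 268 and 255 CPM in SurvNESmut-GFP cells. It rose by 0.77 (SE 0.05) in the former, while its ranges overlapped in the latter (0.05 ± 0.05, adjusted p = 0.459), and the effects differed by −0.72 ± 0.08 (adjusted p = 1.91e-06). NRP2 rose by 0.27 (SE 0.07) in Surv-GFP and fell by 0.41 (SE 0.08) in SurvNESmut-GFP cells, a difference of −0.68 ± 0.11 (adjusted p = 0.000130). Per length, SEMA3A stood at 1.01 ± 0.0899 times NRP1 (SD, n = 2) in untreated and 0.816 ± 0.0334 times in exposed Surv-GFP cells, and at 0.326 ± 0.00475 and 0.305 ± 0.0104 times in SurvNESmut-GFP cells.

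In Surv-GFP cells, where 30.1% of all genes rose and 28.9% fell, 3 (37.5%) of the 8 plexins tested rose and 2 (25%) fell. In SurvNESmut-GFP cells, where 18.6% and 19.1% of all genes did, 1 (12.5%) of the plexins rose and 2 (25%) fell. PLXNB2, the most abundant, was at 304 and 303 and then 538 and 580 CPM in Surv-GFP cells, and at 398 and 392 and then 570 and 606 CPM in SurvNESmut-GFP cells. It rose in both, by 0.88 (SE 0.05) and 0.57 (SE 0.05), and the rise was smaller in SurvNESmut-GFP cells by 0.31 (SE 0.07, adjusted p = 0.00269). PLXND1, the receptor of SEMA3E, went the other way, from 73.5 and 71.7 to 46.6 and 45.0 CPM in Surv-GFP cells and from 213 and 201 to 113 and 122 CPM in SurvNESmut-GFP cells. It fell by 0.66 and 0.82, with a difference of −0.16 ± 0.08 (adjusted p = 0.142). PLXNB3 was at 280 and 290 and then 240 and 252 CPM in Surv-GFP cells, and at 132 and 137 and then 144 and 135 CPM in SurvNESmut-GFP cells. It fell by 0.21 in the former, and exons of SRPK3 on the same strand overlap 19.6% of its length. PLXNA2 was at 5.09 and 5.02 and then 7.65 and 7.12 CPM in Surv-GFP cells and at 0.488 and 0.444 and then 0.292 and 0.315 CPM in SurvNESmut-GFP cells. Its rise by 0.55 in Surv-GFP cells (adjusted p = 0.00409) was not called by DESeq2 (adjusted p = 0.107). PLXNA3 rose in Surv-GFP cells by 0.27, PLXNB1 fell in SurvNESmut-GFP cells by 0.43, and PLXNA1 and PLXNC1 passed the test in neither clone.

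Ephrin-A ligands fell and the ephrin-B sum was carried by EFNB2. Of the 4 ephrin-A ligands tested 3 (75%) fell in each clone and 0 rose. Of all genes 28.9% fell in Surv-GFP and 19.1% in SurvNESmut-GFP cells, and 30.1% and 18.6% rose. The ligands that fell were EFNA3, EFNA4 and EFNA5 in Surv-GFP and EFNA1, EFNA3 and EFNA4 in SurvNESmut-GFP cells. In the latter the falls of EFNA3 and EFNA4 were each lost with 2 or 3 libraries left out in turn, where they were as small as 0.37 and 0.29. Both were also lost by DESeq2 (adjusted p = 0.125 and 0.152). That of EFNA4 was lost with library size alone (0.0510) and with the 4 libraries of the contrast alone (0.0529) as well. The summed level of the ephrin-A ligands was 114 ± 1.73 and then 65.7 ± 1.05 CPM (SD, n = 2) in Surv-GFP cells, and 76.6 ± 2.21 and then 60.6 ± 2.29 CPM in SurvNESmut-GFP cells. EFNA5, which binds most EphA receptors, was at 71.4 and 72.2 and then 32.5 and 31.3 CPM in Surv-GFP cells, and at 36.1 and 34.7 and then 33.6 and 33.0 CPM in SurvNESmut-GFP cells. Only the untreated Surv-GFP libraries were high. It fell by 1.17 (SE 0.06, adjusted p = 7.35e-11) in Surv-GFP cells and was at −0.09 ± 0.07 (adjusted p = 0.321) in SurvNESmut-GFP cells, a difference of 1.08 ± 0.09 (adjusted p = 1.34e-07).

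EFNB2, the ligand of EPHB4 in vessel formation, was at 47.4 and 49.2 CPM in untreated Surv-GFP cells, at 156 and 152 CPM with TMZ, at 51.3 and 50.2 CPM in untreated SurvNESmut-GFP cells and at 70.6 and 60.1 CPM with TMZ. The exposed Surv-GFP libraries stood above all others, and the untreated clones did not differ by the test (0.07 ± 0.07, adjusted p = 0.389). It rose by 1.67 (SE 0.06, adjusted p = 2.03e-12) in Surv-GFP and 0.37 (SE 0.07, adjusted p = 0.000493) in SurvNESmut-GFP cells, a difference of −1.31 ± 0.09 (adjusted p = 3.01e-08). EFNB2 made up 66.5% of the ephrin-B sum in untreated and 91.2% in exposed Surv-GFP cells. EFNB1 fell by 0.52 and 0.69 in the respective clones. EFNB3 was at 11.2 and 10.7 and then 6.10 and 4.99 CPM in Surv-GFP cells, and at 0.922 and 1.5 and then 0.935 and 1.13 CPM in SurvNESmut-GFP cells. It fell by 0.98 (SE 0.15) in the former and was at −0.23 ± 0.34 (adjusted p = 0.635) in the latter, with a difference that did not pass the test (0.75 ± 0.38, adjusted p = 0.133).

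**Figure D4:**
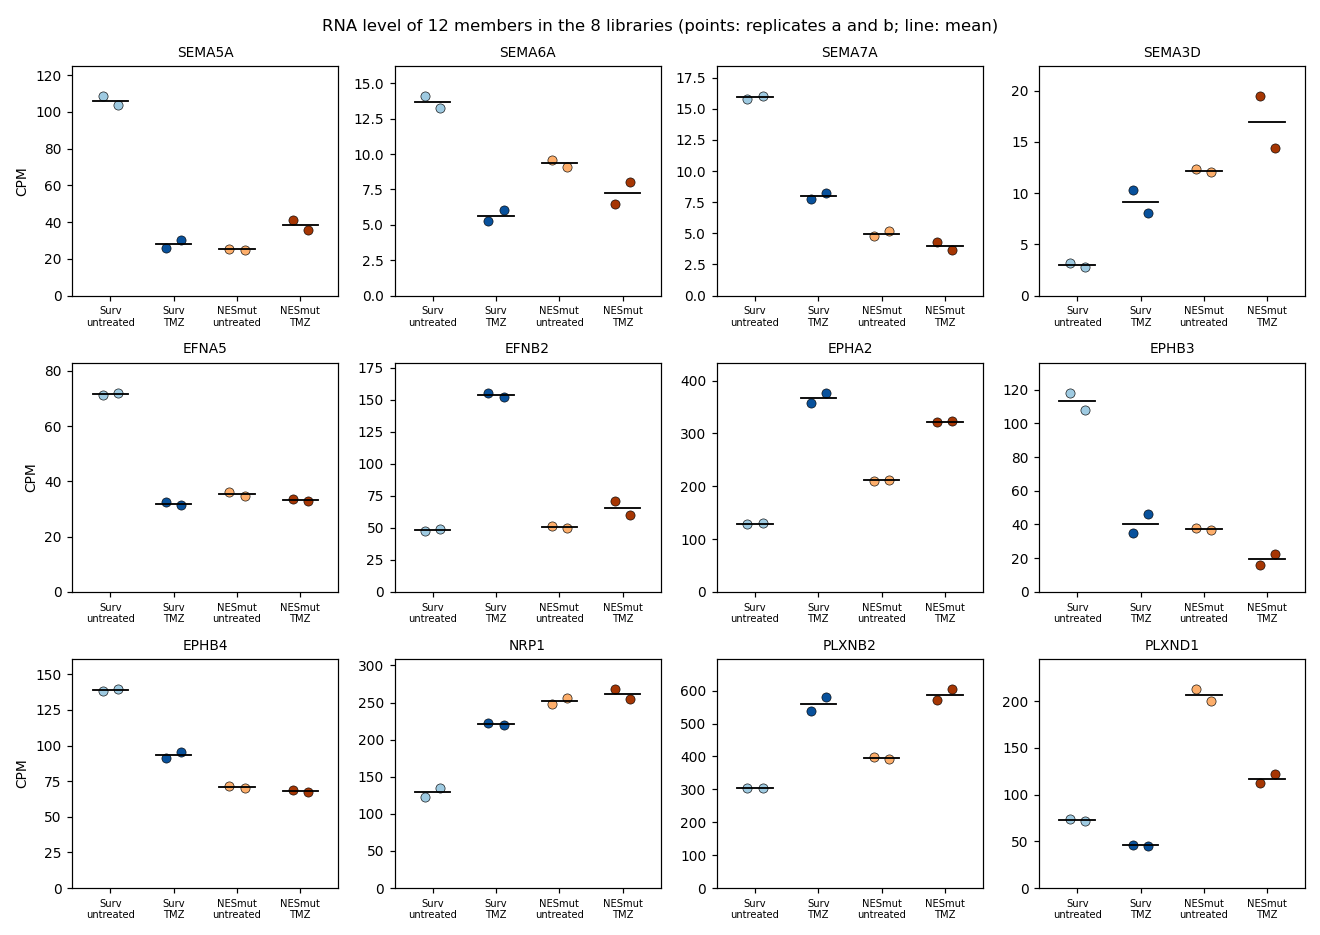
CPM (y axes from 0, each with its own scale) of 12 members in the 8 libraries, with replicates a and b as points and the mean as a line. SEMA5A, SEMA6A, SEMA7A, EFNA5, EPHB3 and EPHB4 are highest in untreated Surv-GFP cells, and EFNB2 and EPHA2 are highest in Surv-GFP cells with TMZ.

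EPHA2 rose in both clones. Of the 5 EphA receptors tested 2 (40%) rose and 1 (20%) fell in each clone. Of all genes 30.1% rose and 28.9% fell in Surv-GFP cells, and 18.6% and 19.1% did in SurvNESmut-GFP cells. EPHA2, a receptor kinase often raised in glioblastoma, was at 128 and 130 CPM in untreated Surv-GFP cells, at 358 and 377 CPM with TMZ, at 210 and 212 CPM in untreated SurvNESmut-GFP cells and at 322 and 323 CPM with TMZ. All 4 groups were apart. The rise was 1.51 ± 0.05 (SE, adjusted p = 2.48e-13) in Surv-GFP and 0.61 ± 0.05 (adjusted p = 4.29e-08) in SurvNESmut-GFP cells, a difference of −0.90 ± 0.07 (adjusted p = 4.58e-08). The share of EPHA2 in the EphA sum was 45.0% and then 74.3% in Surv-GFP cells, and 78.2% and then 83.1% in SurvNESmut-GFP cells. EPHA3 was at 145 and 136 and then 105 and 108 CPM in Surv-GFP cells, and at 24.7 and 24.3 and then 23.0 and 28.5 CPM in SurvNESmut-GFP cells. It fell by 0.40 (SE 0.06) in the former and its ranges overlapped in the latter, and the effects differed (0.47 ± 0.11, adjusted p = 0.00278). EPHA4 rose in both clones, by 0.38 and 0.33, and each of these calls was lost without the untreated replicate a of its clone (adjusted p = 0.112 and 0.0882). EPHA5 was at 2.06 and 1.60 and then 1.60 and 1.26 CPM in Surv-GFP cells, and at 4.83 and 5.56 and then 6.25 and 5.93 CPM in SurvNESmut-GFP cells, and it passed the test of the TMZ effect in neither. The fall of EPHA7 in SurvNESmut-GFP cells, by 0.74 (adjusted p = 0.0112), was lost without the untreated replicate a (0.0830) or TMZ replicate a (0.0624) of that clone and by DESeq2 (0.137), and its levels are given with the clone differences.

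Among the EphB receptors EPHB3 changed most. Of the 4 tested 2 (50%) fell in Surv-GFP cells and 0 rose, where 28.9% and 30.1% of all genes did. In SurvNESmut-GFP cells 1 (25%) rose and 1 fell, where 18.6% and 19.1% of all genes did. EPHB3 was at 118 and 108 and then 35.0 and 45.9 CPM in Surv-GFP cells, and at 37.9 and 36.9 and then 16.1 and 22.3 CPM in SurvNESmut-GFP cells. It fell by 1.49 (SE 0.10) and 0.97 (SE 0.13). The difference of 0.52 ± 0.17 (adjusted p = 0.0246) was lost with 5 of the 8 libraries left out in turn, up to 0.161 without SurvNESmut-GFP TMZ replicate b, and by DESeq2 (0.168). EPHB4 was at 138 and 140 and then 91.5 and 95.4 CPM in Surv-GFP cells, and at 71.7 and 70.0 and then 68.7 and 67.1 CPM in SurvNESmut-GFP cells. It fell by 0.57 (SE 0.05) in the former and was at −0.06 ± 0.05 (adjusted p = 0.399) in the latter, and the effects differed by 0.51 ± 0.07 (adjusted p = 3.41e-05). EPHB2 rose by 0.42 in SurvNESmut-GFP cells, a call lost without untreated replicate b (0.103) or TMZ replicate a (0.101) of that clone.

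Ligand and receptor were also set against each other per length within each library. EFNB2 was at 0.298 and 0.306 times EPHB4 in untreated Surv-GFP cells and at 1.48 and 1.39 times with TMZ, so that the order of the pair turned. In SurvNESmut-GFP cells the same ratio was 0.622 and 0.623 and then 0.892 and 0.777. EFNA1, a high-affinity ligand of EPHA2, was at 0.504 and 0.437 times EPHA2 in untreated and 0.138 and 0.146 times in exposed Surv-GFP cells, and at 0.266 and 0.251 and then 0.0938 and 0.115 times in SurvNESmut-GFP cells. EFNA1 itself was at 31.4 and 27.5 and then 24.0 and 26.7 CPM in Surv-GFP cells (log2 fold change −0.22 ± 0.10, adjusted p = 0.0620) and fell by 0.70 (SE 0.11) in SurvNESmut-GFP cells. The decrease of EFNA1 in Surv-GFP cells passed the test with 4 of the libraries left out in turn and under 5 other settings, with adjusted p from 0.0223 to 0.0415.

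The clones were compared without and with TMZ, each time SurvNESmut-GFP against Surv-GFP cells. These comparisons use the same libraries as the TMZ effects and are not separate evidence. Untreated, 36 members differed, 81.8% against 64.1% of all tested genes, with 17 higher and 19 lower in SurvNESmut-GFP cells, 38.6% and 43.2%, where 34.7% and 29.4% of all genes were. With TMZ, 34 differed, 77.3% against 69.2% of all genes, with 16 higher and 18 lower, 36.4% and 40.9%, where 34.5% and 34.7% of all genes were. By 1 or more on the log2 scale, 6 were higher (7.85% of all genes) and 10 lower (7.77%) untreated, and 7 were higher (10%) and 7 lower (8.2%) with TMZ. Of these 16 and 14 members 4 each time, EPHA7, PLXNA2, SEMA3F and SEMA4A, passed the count filter only in groups of the clone where they were high. The same 4 are among the 36, the 34 and the members counted next, so none of these counts is read against that of all genes. The differences had the same sign without and with TMZ in 35 members, 79.5% (76.4% of all genes). The absolute difference was larger in untreated cells in 28, 63.6% (43.9% of all genes). EFNA5, NRP1, EPHB4 and SEMA5A were among those whose clone difference was smaller with TMZ. For EFNA5 it was −1.02 ± 0.06 untreated and 0.06 ± 0.07 (adjusted p = 0.412) with TMZ. For SEMA5A it was −2.08 ± 0.08 untreated and 0.44 ± 0.08 (adjusted p = 0.000182) with TMZ.

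**Figure D5:**
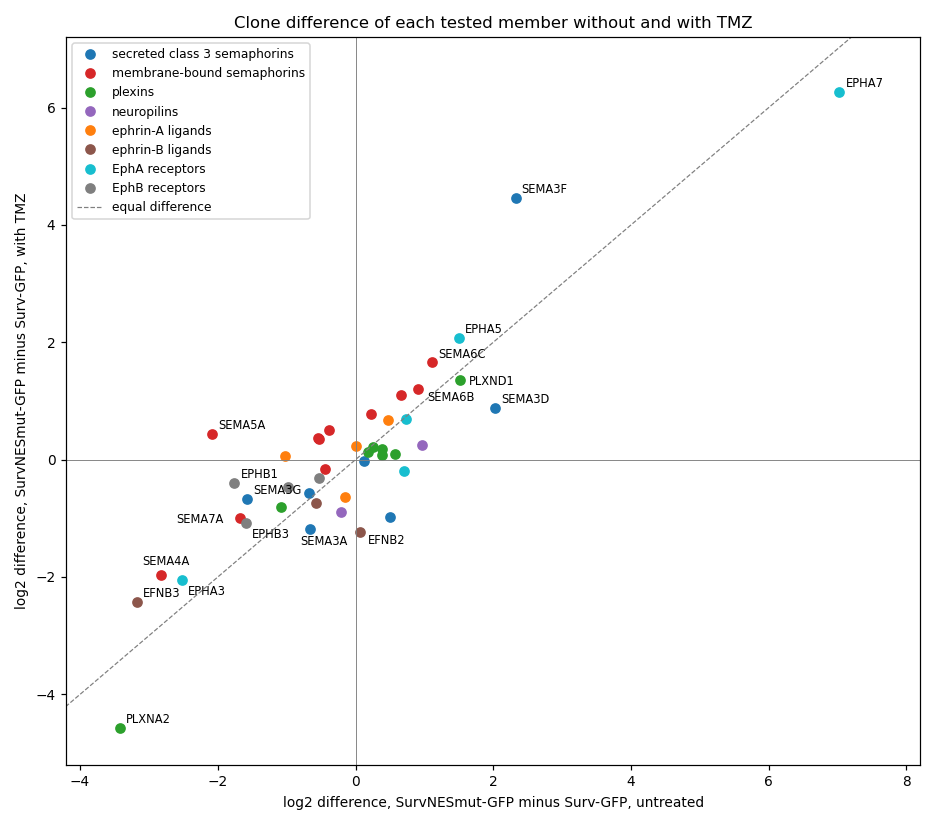
Log2 difference between the clones, SurvNESmut-GFP minus Surv-GFP, in untreated cells (x axis) and in cells with TMZ (y axis) for the 44 tested members, colored by role, with the line of equal difference. EPHA7 and PLXNA2 lie at the ends, SEMA5A lies at −2.08 and 0.44, and the places of EPHA7, PLXNA2, SEMA3F and SEMA4A rest on groups with few reads.

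Several members were near 0 or much lower in a single clone. EPHA7 had 0 and 1 reads in untreated and 0 and 1 in exposed Surv-GFP cells, which is up to 0.0574 CPM, and 4.66 and 4.28 and then 2.51 and 2.84 CPM in SurvNESmut-GFP cells. By summed reads the untreated ratio was 164, with a 95% interval from 29 to 6500 for counting error, and with TMZ it was 96.4, from 16.9 to 3851. PLXNA2 had 185 reads in untreated Surv-GFP and 17 in untreated SurvNESmut-GFP cells, a ratio of 0.0922 (0.0526 to 0.152), and 267 and 10 reads with TMZ, a ratio of 0.0410 (0.0195 to 0.0766). EPHA7 and PLXNA2 were thus each near 0 or low in all 4 libraries of a single clone, and their ratios are descriptions. EFNB3 differed by −3.17 ± 0.20 untreated and −2.42 ± 0.24 with TMZ, and EPHA3 by −2.52 ± 0.07 and −2.05 ± 0.08. SEMA4A had 23 reads in untreated Surv-GFP and 3 in untreated SurvNESmut-GFP cells, a ratio of 0.131 with an interval from 0.0252 to 0.433, and 39 and 9 reads with TMZ, a ratio of 0.253 from 0.108 to 0.531. SEMA3F had 4 reads in untreated Surv-GFP and 21 in untreated SurvNESmut-GFP cells, a ratio of 5.27 from 1.78 to 21.1, and 1 and 25 reads with TMZ, a ratio of 27.4 from 4.48 to 1125. SEMA4A and SEMA3F passed the count filter only in cells of the clone where they were high. Their ratios are thus descriptions too, and the tests of their clone differences are not read as support. In untreated cells the log2 clone difference of SEMA4A was −2.83, and it was −2.14 without Surv-GFP replicate a, where its call was lost. That of SEMA3F was 2.32. It was 1.36 without Surv-GFP replicate a and 2.24 without SurvNESmut-GFP replicate b, and its call was lost in both and by DESeq2.

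Other members were higher in SurvNESmut-GFP cells. PLXND1 was higher by 1.51 ± 0.05 untreated and 1.35 ± 0.06 with TMZ, EPHA5 by 1.5 ± 0.20 and 2.08 ± 0.21, SEMA6C by 1.11 ± 0.15 and 1.66 ± 0.21, and SEMA4B by 0.67 ± 0.06 and 1.10 ± 0.07. SEMA3D was higher by 2.03 ± 0.19 untreated and 0.88 ± 0.14 with TMZ. The glioma markers S100B and PTPRZ1 also differed between the clones: S100B was between 756 and 798 CPM in untreated Surv-GFP and between 40.1 and 41.2 CPM in untreated SurvNESmut-GFP cells, and PTPRZ1 between 379 and 405 and between 50.8 and 52.9 CPM. The part of such clone differences in the values above was not tested.

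The genes that work with these families were counted from lists. Among all genes 30.1% rose and 28.9% fell in Surv-GFP cells, 18.6% rose and 19.1% fell in SurvNESmut-GFP cells, and 36.8% differed in effect. Of 30 tested partners of semaphorin signaling 9 (30.0%) rose and 12 (40.0%) fell in Surv-GFP cells, 5 (16.7%) rose and 5 fell in SurvNESmut-GFP cells, and the effects differed in 13 (43.3%). MICAL2, an actin-oxidizing enzyme of plexin signaling, went from 4.5 and 5.35 to 28.5 and 22.7 CPM in Surv-GFP cells and from 41.7 and 42.7 to 95.7 and 85.8 CPM in SurvNESmut-GFP cells, with a difference of effects of −1.27 ± 0.16. MET, a receptor kinase that couples to class B plexins, and RAP1B, a small GTPase on which plexins act, had differences of −0.55 ± 0.08 and −0.71 ± 0.07. The CRMP proteins DPYSL2 and DPYSL3, which carry SEMA3A signals, and the exchange factor FARP1 had differences of 0.74 ± 0.08, 0.41 ± 0.07 and 0.68 ± 0.07. DPYSL2 and FARP1 fell in Surv-GFP cells by 0.99 and 0.73.

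Of 27 tested partners of Eph and ephrin signaling 5 (18.5%) rose and 9 (33.3%) fell in Surv-GFP cells, 4 (14.8%) rose and 7 (25.9%) fell in SurvNESmut-GFP cells, and the effects differed in 13 (48.1%). The kinase ABL2 rose by 1.70 and 0.57 and the adaptor GRB10 by 1.19 in Surv-GFP cells, against −0.02 ± 0.06 in SurvNESmut-GFP cells, with differences of −1.12 ± 0.09 and −1.21 ± 0.08. DOK1 had a difference of −0.63 ± 0.10. CHN1, which relays EphA signals to Rac, fell by 1.21 and 0.65, and PIK3R1 and ITSN1 fell in Surv-GFP cells by 0.71 and 0.43, with differences of 0.56 ± 0.10, 0.72 ± 0.10 and 0.39 ± 0.09. Of 19 tested genes of other guidance families 8 (42.1%) rose and 9 (47.4%) fell in Surv-GFP cells, 8 (42.1%) rose and 4 (21.1%) fell in SurvNESmut-GFP cells, and the effects differed in 7 (36.8%, the share of all genes). The secreted cues SLIT2 and NTN1 rose in both clones, with differences of −1.18 ± 0.11 and −0.89 ± 0.16, and the receptor ROBO1 fell in both, with a difference of −0.29 ± 0.09. The differences of UNC5C, NTNG1 and RGMA were 0.65 ± 0.10, 1.2 ± 0.20 and 0.65 ± 0.22.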

How the data were processed

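The authors sequenced total RNA of both LN229 clones by Illumina. They deposited raw counts of reads for 26364 gene symbols, not normalized, beside 2 rows naming no gene (11.2% to 14.3% and 1.19% to 1.28% of the reads per library, left out). The submitters' processing notes list STAR 2.5.0b, Cufflinks 2.2.1 and edgeR without a role. For build, annotation, strand and counting program no entry was found: not given in the sources used here. Deposited comparison tables (fold changes, p-values) were not used.

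Libraries were grouped by their labels, and columns were matched by the code in the title. Counts were fitted in R 4.3.3 with edgeR 4.0.16: TMM, the filter on low counts by group (minimum count 10), a mean per group over all 8 libraries and the quasi-likelihood F test, with Benjamini-Hochberg adjustment over 14201 genes and a threshold of 0.05. Contrasts were the TMZ effect per clone, their difference, and the clone difference untreated and with TMZ. The SE of a log2 fold change was calculated back from the test, as its absolute value over the square root of F. CPM use TMM-scaled library sizes of the tested genes. Lengths and overlaps are those of GENCODE v29, which may differ from the annotation the authors counted on. Members called at a log2 fold change of 1 or more in any contrast (25) and the most abundant of each role, 30 in all, are given per library. Partner genes named are at most 3 per direction and list, by the smallest p in the difference of effects. Other genes given with values (SEMA3C, SEMA4F, NRP2, EFNA1 and further members) were chosen after their values were seen. The members, lists and rule were chosen with earlier results of these data known. Ratios of reads carry exact 95% intervals, which cover counting error only, since no molecular identifiers are given. The fit was also run on simulated counts with the same spread for all genes and groups and few changed genes. The libraries here differ from that in both, so no conclusion is drawn from it.

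Alternatives were DESeq2 size factors or library size alone, leaving out the filter or requiring 1 CPM in 2 libraries, DESeq2 1.42.0, the newer quasi-likelihood method, robust estimation of the prior, the letter as a replicate block, the 4 libraries of a contrast alone, and leaving out each library.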

Additional observations from a re-analysis of the deposited data

Results flagged for a closer look

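The TMZ effect differed between the clones, by the test of the difference itself, in 22 members, and each value below is the log2 fold change in SurvNESmut-GFP minus that in Surv-GFP cells. Among the semaphorins the difference was 2.52 for SEMA5A, 0.91 for SEMA6A, 0.89 for SEMA4G, 0.68 for SEMA7A, 0.54 for SEMA4F, 0.43 for SEMA4B and 0.28 for SEMA4C, all membrane-bound. For the secreted SEMA3A, SEMA3D and SEMA3E it was −0.51, −1.15 and −1.48. The receptors NRP1 and NRP2 had −0.72 and −0.68, and PLXNB1, PLXNB2 and PLXNB3 had −0.47, −0.31 and 0.27. Of the ephrins EFNA5 had 1.08, EFNA1 −0.48 and EFNB2 −1.31. Among the Eph receptors EPHA2 had −0.90, EPHA3 0.47, EPHB3 0.52 and EPHB4 0.51. With DESeq2 the calls of EPHB3 (adjusted p = 0.168), PLXNB1 (0.0885), SEMA4G (0.0672) and SEMA7A (0.0576) were lost. With the robust prior those of EPHB3 (0.160) and PLXNB1 (0.0915) were lost. In the absence of any single library 15 of these 22 calls remained, and those lost were EFNA1, EPHB3, PLXNB1, PLXNB3, SEMA4C, SEMA4G and SEMA7A.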

How the results depend on the processing

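The replicate letters are shared between groups, but same-lettered libraries did not deviate together: r of their deviations was between −0.098 and 0.097 in 6 pairs of groups. With the replicate block 11 members rose and 21 fell in Surv-GFP and 8 and 16 in SurvNESmut-GFP cells, 12 and 10 differed in effect, and the counts of the clone comparisons were 17 and 19 and 16 and 18, all as without it.

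With each library left out in turn, the members that rose and fell numbered 11 and 20 to 23 in Surv-GFP cells and 6 to 8 and 11 to 16 in SurvNESmut-GFP cells. Higher and lower differences of effects numbered 8 to 13 and 8 to 12, the untreated clone difference 15 to 17 and 16 to 21, and that with TMZ 12 to 16 and 16 to 19. DESeq2 called 12 falls in SurvNESmut-GFP cells, and 9 higher and 9 lower differences of effects in place of 12 and 10. With it 3 Eph partners rose in Surv-GFP cells in place of 5. In other guidance families 2 genes had a higher effect in place of 4. A scaling other than TMM moved the median of all genes by less than 0.1.

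Some summed levels moved by more than their SD. With library size alone these were, in untreated Surv-GFP cells, 2874 CPM for all members, 116 for ephrin-A, 73.9 for ephrin-B, 291 for EphA, 936 for plexins and 586 for class 3 semaphorins. In untreated SurvNESmut-GFP cells they were 2664 for all members, 264 for EphA, 314 for neuropilins, 1051 for plexins, 480 for class 3 and 299 for membrane-bound semaphorins. With DESeq2 size factors they were 2867, 290.5 (EphA), 933 (plexins) and 585 (class 3) in untreated Surv-GFP cells, and 106 (EphB) and 311 (neuropilins) in exposed SurvNESmut-GFP cells.

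Among the 30 members given per library, directions turned only in values that did not pass the test before or after the turn. The ranges below also hold fits without a turn, in which SEMA3B and SEMA4G gained a call of the clone difference with TMZ. The TMZ effect of EPHA7 in Surv-GFP cells was −0.0036 with DESeq2 size factors, −0.0017 with library size alone, −0.0035 without a filter, −0.0194 with the 1 CPM filter and −0.0038 with DESeq2, and with a library left out in turn it ranged from −2.31 to 2.30. Over the libraries left out, the same effect ranged from −0.091 to 0.0067 for SEMA3B and from −4.06 to 2.30 for SEMA3F, and in SurvNESmut-GFP cells from −0.54 to 0.16 for EFNB3, −0.085 to 0.22 for EPHA3 and −0.49 to 0.42 for SEMA3G. The difference of effects ranged from −3.05 to 1.57 for EPHA7 and −1.91 to 4.45 for SEMA3F, and the clone difference with TMZ from −0.016 to 0.12 for PLXNB2, −0.166 to 0.049 for SEMA3B and −0.027 to 0.62 for SEMA4G. The cause was not tested. With 2 libraries per group and few reads on SEMA3F, SEMA4A, EPHA7 and EPHB1, differences in these were not detectable unless large.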
